A study of Homo sapiens with 9 samples.

Results

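The KMT2 and SETD1 histone methyltransferases examined here are the 8 genes KMT2A, KMT2B, KMT2C, KMT2D, KMT2E, SETD1A, SETD1B and SETD2. They were chosen by name, and all 8 were found among the 35876 gene symbols of the deposited count table. All 8 passed the filter on low counts that left 11905 genes for testing. RNA sequencing was done on cells of HEK293, a line derived from human embryonic kidney, in a series on a chemically controlled and reversible knockout system. There were 3 groups of 3 replicates, and every group carried Cas9, an RNA-guided DNA nuclease, together with an element labelled CC that the labels do not explain. The Cas9 group (CC_Cas9) had no recombinase, the Cre group (CC_Cas9_Cre) also had the Cre recombinase, which acts on loxP sites, and the Flpo group (CC_Cas9_Flpo) had the Flpo recombinase, which acts on FRT sites. The labels name no guide, target gene, inducer, dose, time or clone, and they do not say whether replicates were separate cultures, so p-values measure the spread between these samples, which may be technical.

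These proteins carry a SET domain, the fold that transfers methyl groups to histone lysines. KMT2A and KMT2B act with menin at promoters of developmental genes, KMT2C and KMT2D place H3K4 monomethylation at enhancers, and SETD1A and SETD1B place most of the H3K4 trimethylation at active promoters. All of these work in COMPASS complexes around the shared subunits WDR5, RBBP5, ASH2L and DPY30. KMT2E binds H3K4 trimethylation through its PHD finger and has little or no methyltransferase activity of its own, and SETD2 places H3K36 trimethylation along transcribed gene bodies behind elongating RNA polymerase II.

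Depth differed greatly between libraries. The total estimated count was 993902 to 3761779 in the Cas9 group, 213907 to 1701730 in the Cre group and 4989524 to 8833491 in the Flpo group. Values are given as CPM, counts per 1000000 after TMM scaling (edgeR's adjustment for composition), and a count of 3 was worth 0.473 CPM in Flpo replicate 3 but 11.1 CPM in Cre replicate 2. The mean transcript length behind the counts was 3535 to 4967 bases in Cas9 and 4482 to 5156 in Cre. It was 3103 and 3216 in Flpo replicates 1 and 3 and 5445 in Flpo replicate 2, which stood apart from the other two. Every pair of replicates differed by more than sampling noise (chi-square per degree of freedom 10.8 to 275). HEK293 markers summed to 531 to 5319 CPM, with KRT8, KRT18, VIM, NEFL and EYA1 counted in all 9 libraries and PAX2 at 0 in 8 of 9. The extraction protocol mentions livers. Of 9 liver markers FGB was at 0 in all 9 libraries and ALB, TTR and SERPINA1 in 8 of 9. APOA1, HP and TF were counted in all 9 libraries (TF at 8.21 to 101 CPM), and the 9 liver markers summed to 9.94 to 134 CPM.

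The table credits most counts per base of transcript to KMT2A. On a per-length scale (CPM per kilobase of the longest coding transcript), KMT2A stood at 11.8 ± 4.49 over the 9 libraries, KMT2E at 7.10 ± 3.78, SETD2 at 3.31 ± 1.06, KMT2D at 3.07 ± 0.780, KMT2C at 2.80 ± 1.35, SETD1A at 2.68 ± 1.16, KMT2B at 2.08 ± 1.18 and SETD1B at 1.50 ± 1.15 (SD, n = 9). KMT2A ranked first in 7 of 9 libraries and KMT2E in the other two, Flpo replicates 1 and 3. SETD1B ranked last in 5 libraries, including all 3 of the Cre group, and KMT2B in 4, including all 3 of the Flpo group. From SETD2 down to SETD1B each gene differed from its neighbour in this order by less than the SD of either. Within the Cre group KMT2A (15.4 ± 1.63) did not overlap KMT2E (3.95 ± 2.43), whereas their libraries overlapped in Cas9 (13.3 ± 1.24 and 8.69 ± 4.61) and in Flpo (6.73 ± 3.82 and 8.66 ± 2.75; SD, n = 3 each, in CPM per kilobase).

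**Figure D1:**
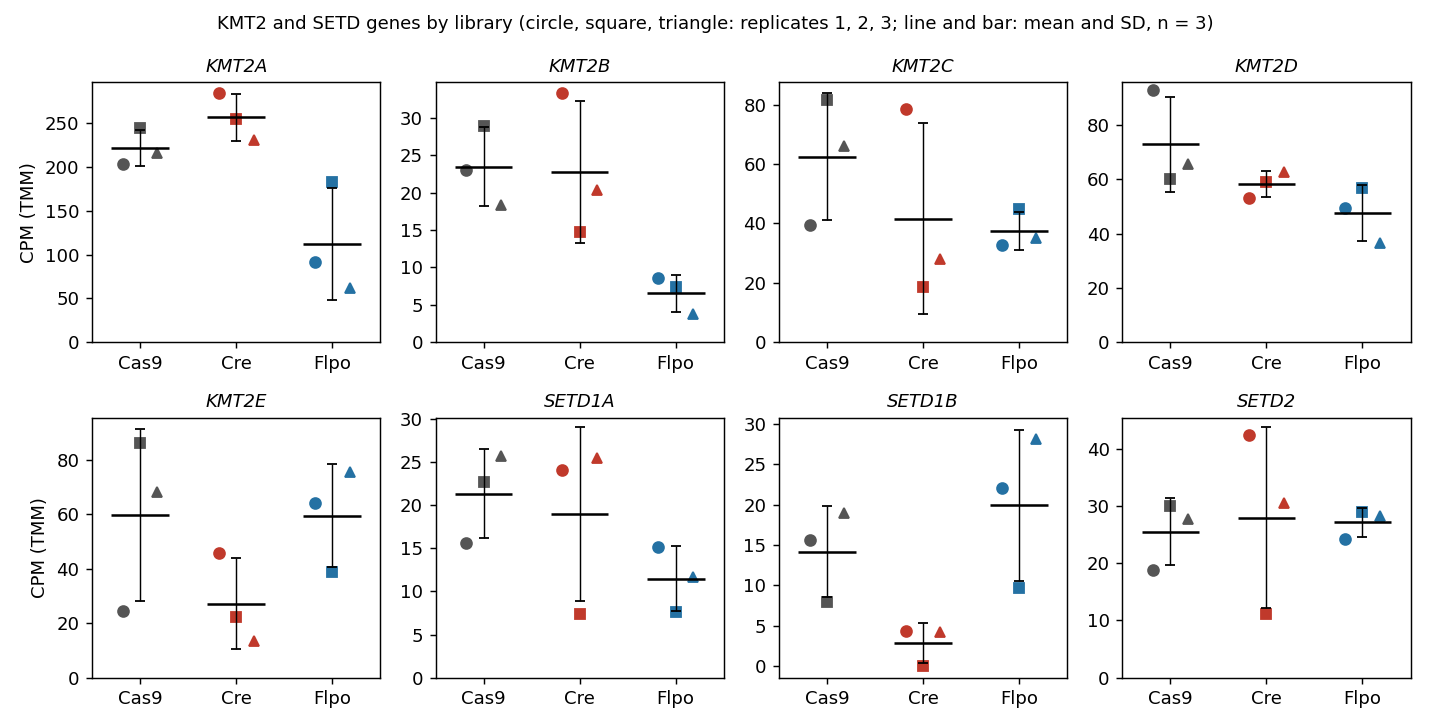
CPM (TMM-scaled counts per 1000000, vertical axes, each with its own range) of the 8 genes in the 3 groups; each point is a library, and the bar and whisker are the group mean and SD (n = 3). KMT2B was at 3.79 to 8.53 CPM in Flpo and at 14.8 CPM or more in all Cas9 and Cre libraries, and SETD1B was at 0 to 4.34 CPM in Cre and at 7.94 CPM or more elsewhere.

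KMT2B, the menin-bound paralogue of KMT2A, was lower in the Flpo group than in both others. Its level was 23.0, 28.9 and 18.4 CPM in Cas9 replicates 1 to 3, 33.2, 14.8 and 20.4 in Cre, and 8.53, 7.33 and 3.79 in Flpo. All 3 Flpo libraries lay below all 6 others, although the Cre value of 14.8 rests on 4 counts. In Cre against Flpo KMT2B rose by a log2 fold change of 1.85 (SE 0.57, edgeR adjusted p = 0.0391). Against Cas9, Flpo gave -1.83 (SE 0.56, edgeR adjusted p = 0.109, unadjusted 0.00611) and Cre gave 0.02 (SE 0.56, adjusted p = 0.990). The call in Cre against Flpo was lost when Cas9 replicate 2 or 3, Cre replicate 1, 2 or 3, or Flpo replicate 1 or 3 was left out (edgeR adjusted p 0.0509 to 0.156). It was kept without Cas9 replicate 1 or Flpo replicate 2, and all these fits gave a positive value (1.45 to 2.20). Without Flpo replicate 2 the Flpo against Cas9 value of -1.93 passed as well (edgeR adjusted p = 0.0466), beside 2684 of about 12600 genes. In bulk RNA, fewer cells expressing a gene and less RNA per cell cannot be told apart.

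KMT2A, the gene rearranged in mixed-lineage leukaemias, had the same order of groups but passed in none of the 3 comparisons by edgeR on all 9 libraries. It stood at 204, 244 and 216 CPM in Cas9, 285, 254 and 231 in Cre, and 91.3, 183 and 61.4 in Flpo. The Flpo libraries lay below all 6 others here too, with Flpo replicate 2, the library of longest mean transcript length, close to the Cas9 range. The log2 fold change was 1.20 in Cre against Flpo (SE 0.51, edgeR adjusted p = 0.102), -0.98 in Flpo against Cas9 (SE 0.51, adjusted p = 0.298) and 0.21 in Cre against Cas9 (SE 0.50, adjusted p = 0.862). Without Flpo replicate 2 the Cre against Flpo value was 1.75 (edgeR adjusted p = 0.0126) and Flpo against Cas9 was -1.55 (adjusted p = 0.0393). In that fit 5558 and 2684 of about 12600 genes passed in these comparisons. DESeq2 on all 9 libraries gave 1.26 in Cre against Flpo (adjusted p = 0.0261), where it called 3976 of about 11810 genes.

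Over the 9 libraries log2 CPM of KMT2A and KMT2B had a Pearson r of 0.86 and a Spearman rho of 0.77, the highest r of any pair among the 8 genes. These points share library depth and length bias, and r is given as a description. With log2 total count, r was -0.72 for KMT2A and -0.59 for KMT2B. As background, the bases upstream of both starts are shown, from RefSeq (GRCh38.p14), up to 250 bases before the start. Bases inside GENCODE exons of the gene are left out, and GC boxes (GGGCGG or its reverse complement CCGCCC, which may overlap one another) are in capitals. A link between these bases and the correlation was not tested. The KMT2A window is chr11:118436242-118436463 on the plus strand and the KMT2B window is chr19:35717753-35718002 on the plus strand.
KMT2A: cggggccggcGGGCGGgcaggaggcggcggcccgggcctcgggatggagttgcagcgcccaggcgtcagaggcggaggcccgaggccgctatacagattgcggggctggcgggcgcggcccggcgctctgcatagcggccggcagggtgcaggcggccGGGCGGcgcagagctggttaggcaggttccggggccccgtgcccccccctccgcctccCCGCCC
KMT2B: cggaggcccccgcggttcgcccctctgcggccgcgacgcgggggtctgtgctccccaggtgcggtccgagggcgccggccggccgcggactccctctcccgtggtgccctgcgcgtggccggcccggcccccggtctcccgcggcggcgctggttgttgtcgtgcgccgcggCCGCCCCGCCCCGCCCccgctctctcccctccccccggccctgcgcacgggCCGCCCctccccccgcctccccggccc
The KMT2A stretch held 3 GC boxes in 222 bases and the KMT2B stretch 4 in 250, of which those in the run CCGCCCCGCCCCGCCC overlap. RefSeq windows matched 7 of the 8 genes (not SETD1B), and all 7 held at least 1 GC box in 250 bases, against 42.6% of 35116 windows of that length. None of the 7 held TATAAA (10.7% of all windows) or CCAAT (32.0%), searched on both strands. Their GC content was 65.2% or more, against a median of 58% over all windows. These values use all 250 bases, also those inside exons, and the SETD1A window begins inside a GENCODE exon of that gene.

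KMT2A shares more of its sequence with another gene than the other 7 do, because a readthrough gene repeats part of its transcript. KMT2A lies at chr11:118436464-118526832 (plus strand, GRCh38, GENCODE 29), and AP001267.5 is annotated on the same strand as transcripts that start in the first exon of the upstream gene ATP5MG and continue into KMT2A. AP001267.5 and KMT2A share a run of 3582 bases over 5 exons, and 21.7% of the words of 31 bases in KMT2A also occur in AP001267.5. The junction is what tells them apart, so 30 bases on each side are shown, with the first bases of the shared exon 2 (chr11:118468775-118468844) in capitals.
KMT2A: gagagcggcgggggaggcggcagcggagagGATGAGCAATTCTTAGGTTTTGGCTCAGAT
AP001267.5: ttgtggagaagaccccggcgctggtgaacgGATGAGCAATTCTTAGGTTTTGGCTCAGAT
Only reads that reach the lower-case side, or exons outside the shared run, can be assigned to either with certainty. AP001267.5 took 11.7%, 4.44% and 10.4% of the summed count of both genes in Cas9 and 9.22%, 4.17% and 14.5% in Cre. It took 30.3% (exact 95% interval 27.1 to 33.7) in Flpo replicate 1, 6.93% (5.25 to 8.95) in Flpo replicate 2 and 38.6% (34.7 to 42.5) in Flpo replicate 3, intervals that cover counting error only. The share was highest in the 2 Flpo libraries where KMT2A was lowest, but KMT2A is part of its denominator. AP001267.5 itself stood at 39.8 and 38.5 CPM in these libraries and at 11.1 (Cre replicate 2) to 39.0 (Cre replicate 3) in the others. Its log2 fold change in Cre against Flpo was -0.15 (SE 0.61, edgeR adjusted p = 0.869). Summed over both genes the level was 231, 255 and 241 CPM in Cas9, 314, 266 and 270 in Cre, and 131, 197 and 99.9 in Flpo, and the Flpo libraries still lay below the rest. The summed log2 fold change in Cre against Flpo was 0.99 (SE 0.47, edgeR adjusted p = 0.133), against 1.20 for KMT2A alone. ATP5MG, a subunit of the mitochondrial ATP synthase, fell by 2.67 in Cre against Flpo (log2, SE 0.69, edgeR adjusted p = 0.0234). Whether counts of AP001267.5 came from KMT2A transcripts was not tested.

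**Figure D2:**
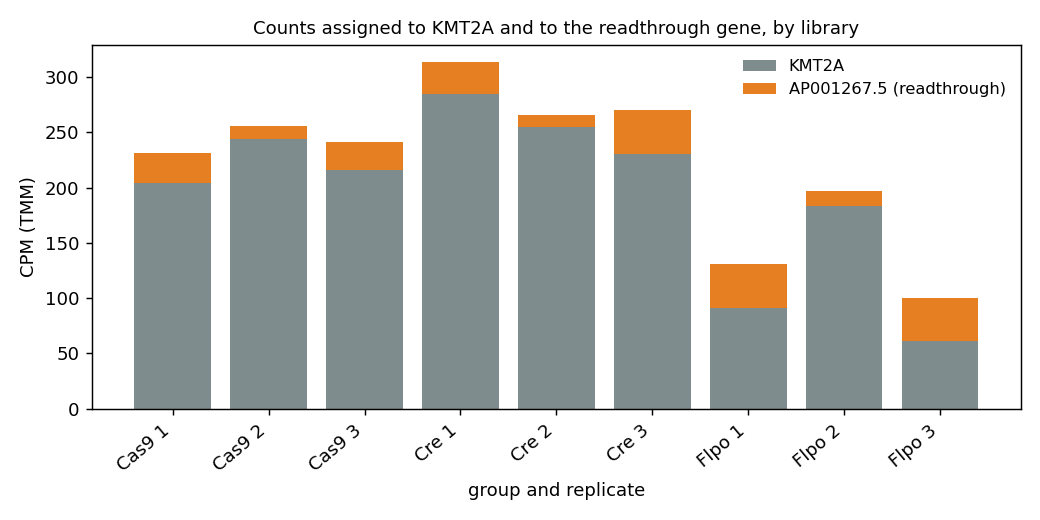
Stacked bars of CPM (TMM-scaled counts per 1000000, from 0) assigned to KMT2A (grey) and to the readthrough gene AP001267.5 (orange) in each of the 9 libraries. The orange part is largest relative to the bar in Flpo replicates 1 and 3 (30.3% and 38.6%).

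KMT2C and KMT2D, the enhancer enzymes that work with the H3K27 demethylase KDM6A, passed in none of the 3 comparisons by edgeR. KMT2C stood at 39.4, 81.7 and 66.1 CPM in Cas9, 78.5, 18.4 and 28.0 in Cre, and 32.6, 44.7 and 35.0 in Flpo. The Cre libraries overlapped both other groups, and the value of 18.4 rests on 5 counts. KMT2D stood at 92.9, 60.1 and 65.5 CPM in Cas9, 53.0, 59.0 and 62.8 in Cre, and 49.5, 56.6 and 36.6 in Flpo. Its Flpo libraries lay below all Cas9 libraries, yet the log2 fold change of -0.61 (SE 0.43) had an edgeR adjusted p of 0.436. The other 5 values of this pair lay between -0.74 and 0.29, with edgeR adjusted p of 0.467 to 0.785. KMT2C shares 10.1% of its 31-base words with other genes, chiefly BAGE2 (8.26%), so reads from those stretches could be assigned to either. Limma voom with quality weights called KMT2C lower in Cre (-1.19, adjusted p = 0.0321) and in Flpo (-1.21, adjusted p = 0.000377), each against Cas9. It also called 3943 and 7267 of the 11905 tested genes in these comparisons. Its library weights ran from 0.195 (Flpo replicate 2) to 5.58 (Flpo replicate 1). Cas9 replicate 2, where KMT2C was highest, had a weight of 5.29, and Cas9 replicate 1 had 0.330.

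SETD1B, like SETD1A the catalytic subunit of a COMPASS complex, was lower in the Cre group than in both others. It stood at 15.6, 7.94 and 18.9 CPM in Cas9, 4.34, 0 and 4.24 in Cre, and 22.0, 9.60 and 28.1 in Flpo. All 3 Cre libraries lay below all 6 others, but these levels rest on 9, 0 and 5 counts, and a count of 0 in Cre replicate 2 allows up to 11.1 CPM, above the lowest Cas9 and Flpo values. In Cre against Flpo the log2 fold change was -2.45 (SE 0.75, edgeR adjusted p = 0.0377). Against Cas9, Cre gave -1.96 (SE 0.75, edgeR adjusted p = 0.619, unadjusted 0.0216) and Flpo gave 0.49 (SE 0.64, adjusted p = 0.692). The call was lost when Cas9 replicate 2, any of the 3 Cre replicates, or Flpo replicate 1 or 3 was left out (edgeR adjusted p 0.0549 to 0.133), while the value stayed between -2.75 and -2.15. With the log2 total count of each library as a covariate it was -0.88 (edgeR adjusted p = 0.940). Log2 CPM of SETD1B had an r of 0.87 with log2 total count over the 9 libraries, the highest of the 8 genes.

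SETD1A, its paralogue, passed in none of the 3 comparisons by edgeR with TMM. SETD1A stood at 15.6, 22.7 and 25.7 CPM in Cas9, 24.1, 7.38 and 25.5 in Cre, and 15.2, 7.58 and 11.7 in Flpo. The Flpo libraries lay below the Cas9 libraries (log2 fold change -0.90, SE 0.56, edgeR adjusted p = 0.389), and Cre overlapped both (0.81 against Flpo, adjusted p = 0.294, and -0.08 against Cas9, adjusted p = 0.955). The value of 7.38 in Cre replicate 2 rests on 2 counts. Without TMM, Cre against Flpo passed (1.63, edgeR adjusted p = 0.0498), beside 2882 of the 11905 tested genes. Limma voom with quality weights called Flpo against Cas9 (-0.68, adjusted p = 0.0339), beside 7267 of the 11905.

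The balance of SETD1A to SETD1B within each library needs no scaling between libraries, but the 2 genes did not follow depth alike. Over the 9 libraries r with log2 total count was 0.87 for SETD1B and 0.07 for SETD1A, so the ratio is not free of depth. With a pseudocount of 0.5 added to each count, there were 1.00, 2.79 and 1.36 SETD1A counts for each SETD1B count in Cas9, 5.32, 5 and 5.55 in Cre, and 0.691, 0.792 and 0.417 in Flpo. SETD1A thus exceeded SETD1B in all Cre libraries and fell short of it in all Flpo libraries, and the 3 groups did not overlap. The value of 5 in Cre replicate 2 comes from 2 counts and 0 counts and is set mostly by the pseudocount. Mean log2 ratios were 0.64 ± 0.76 in Cas9, 2.40 ± 0.08 in Cre and -0.71 ± 0.49 in Flpo (SD, n = 3 each), a difference of 3.11 between Cre and Flpo. The small SD in Cre rests on 50 and 9, 2 and 0, and 30 and 5 counts and is not a reliable measure of spread. An exact permutation test over all 280 splits gave p = 0.003571, the smallest it can give, and 0.0107 after adjustment over the 3 ratios examined. With a pseudocount of 5 the difference was 2.10 (exact permutation, adjusted p = 0.118), and without Cre replicate 3 it was 3.08 (adjusted p = 0.0536). The ratio of KMT2A to KMT2B (log2 difference between Cre and Flpo -0.50, exact permutation p = 0.2, adjusted 0.3) and that of KMT2C to KMT2D (-0.39, p = 0.75) did not pass.

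**Figure D3:**
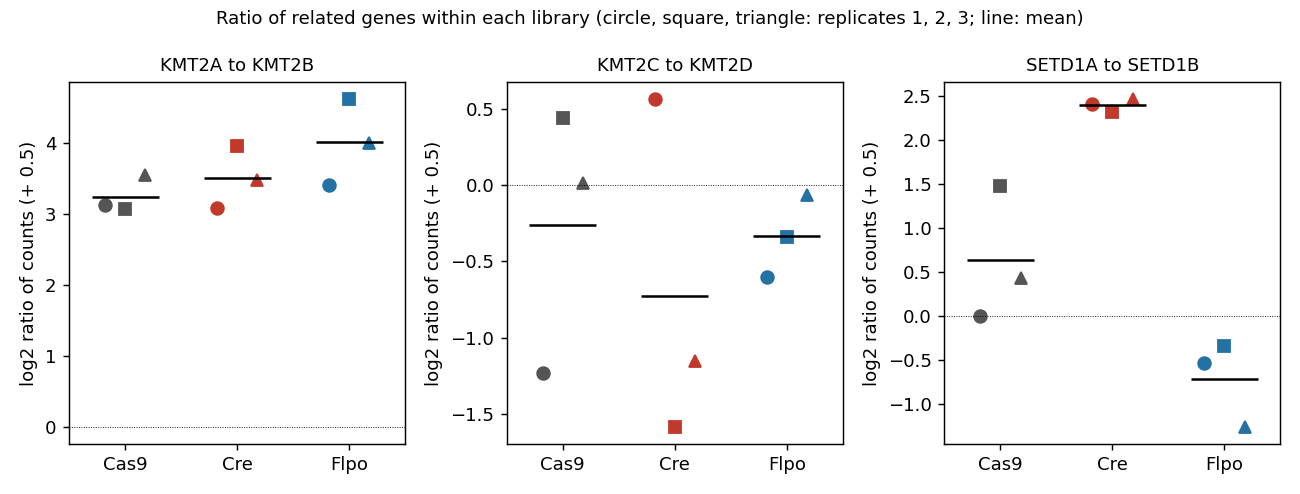
Log2 ratio of counts (each plus 0.5, vertical axes) within each library for 3 pairs of related genes, by group. Each point is a library, and the bar is the group mean (n = 3). For SETD1A to SETD1B the groups do not overlap, with means of 0.64 in Cas9, 2.40 in Cre and -0.71 in Flpo, while the other two pairs overlap between groups.

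KMT2E, the reader of H3K4 trimethylation, passed in none of the 3 comparisons by edgeR and varied widely within groups. It stood at 24.7, 86.2 and 68.3 CPM in Cas9, 45.8, 22.1 and 13.6 in Cre, and 64.3, 38.7 and 75.6 in Flpo. Cre was lower on average (27.2 ± 16.7 CPM, against 59.7 ± 31.7 and 59.5 ± 18.9; SD, n = 3 each) but overlapped both groups. Its log2 fold change was -1.10 against Cas9 (SE 0.61, edgeR adjusted p = 0.619) and -1.09 against Flpo (SE 0.60, adjusted p = 0.189). Limma voom with quality weights called both differences (-2.03, adjusted p = 0.00697, and -1.74, adjusted p = 0.00356). It also called 3943 and 8040 of the 11905 tested genes in these comparisons. The method weighted Cas9 replicate 2 by 5.29 and Cas9 replicate 1 by 0.330, the highest and lowest Cas9 values of KMT2E. Exons of SRPK2 and KMT2E-AS1 overlap KMT2E on the opposite strand, and the use of strand in counting is not given in the sources used here. Antisense exons also overlap KMT2A, KMT2B (IGFLR1), KMT2C, KMT2D and SETD1A, and no exon of another gene overlaps SETD1B or SETD2.

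SETD2, which places H3K36 trimethylation, had nearly equal group means. It stood at 18.9, 30.1 and 27.7 CPM in Cas9, 42.4, 11.1 and 30.5 in Cre, and 24.2, 29.1 and 28.2 in Flpo, so that Cre replicates 1 and 2 were the highest and the lowest of the 9. Log2 fold changes were 0.21 in Cre against Cas9, 0.08 in Flpo against Cas9 and 0.12 in Cre against Flpo, each with an SE of 0.52 to 0.53 and an edgeR adjusted p of 0.875 to 0.943. These values do not show that the groups are alike.

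Counted together, 2 of the 8 genes passed in Cre against Flpo (KMT2B higher, SETD1B lower), beside 20.5% of all tested genes (6.17% higher and 14.3% lower). None passed in Flpo against Cas9, beside 0.227% of all genes, and none in Cre against Cas9, beside 0%. In these latter comparisons 1 of the 8 had an unadjusted edgeR p under 0.05 each, beside 20.0% and 7.38% of all genes. DESeq2 called KMT2B in Flpo against Cas9 (adjusted p = 0.0133), beside 1065 of about 11810 genes. In Cre against Cas9 it called none of the 8, beside 4 of all genes. Groups did not overlap in 3 of 8 in Cre against Flpo (43.2% of all genes, 15.2% higher and 27.9% lower in Cre), 4 of 8, all lower in Flpo, in Flpo against Cas9 (25.0%, and 12.2% lower) and 1 of 8, lower in Cre, in Cre against Cas9 (9.84%, and 6.39% lower). In Cre against Flpo no gene of the table passed without Cre replicate 2, Cre replicate 3 or Flpo replicate 1. None of the 8 passed there without Cas9 replicate 2, Cre replicate 1 or Flpo replicate 3 either, beside 1386, 3132 and 405 of all genes. Without Flpo replicate 2, 3 of the 8 passed, beside 5558 of about 12600 genes. The share of the 8 genes past the threshold in Cre against Flpo was thus close to that of all genes. When all groups were compared at once none of the 8 passed (smallest edgeR adjusted p 0.0756, for KMT2B), beside 9.51% of all genes. At an unadjusted edgeR p under 0.05 that test held 2 of the 8, beside 30.3% of all genes, and Cre against Flpo held 3, beside 39.8%. Median log2 fold changes of the 8 were -0.20 in Cre against Cas9, -0.68 in Flpo against Cas9 and 0.25 in Cre against Flpo, against -0.22, 0.05 and -0.34 for all tested genes. The comparisons share groups and are not independent of each other.

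**Figure D4:**
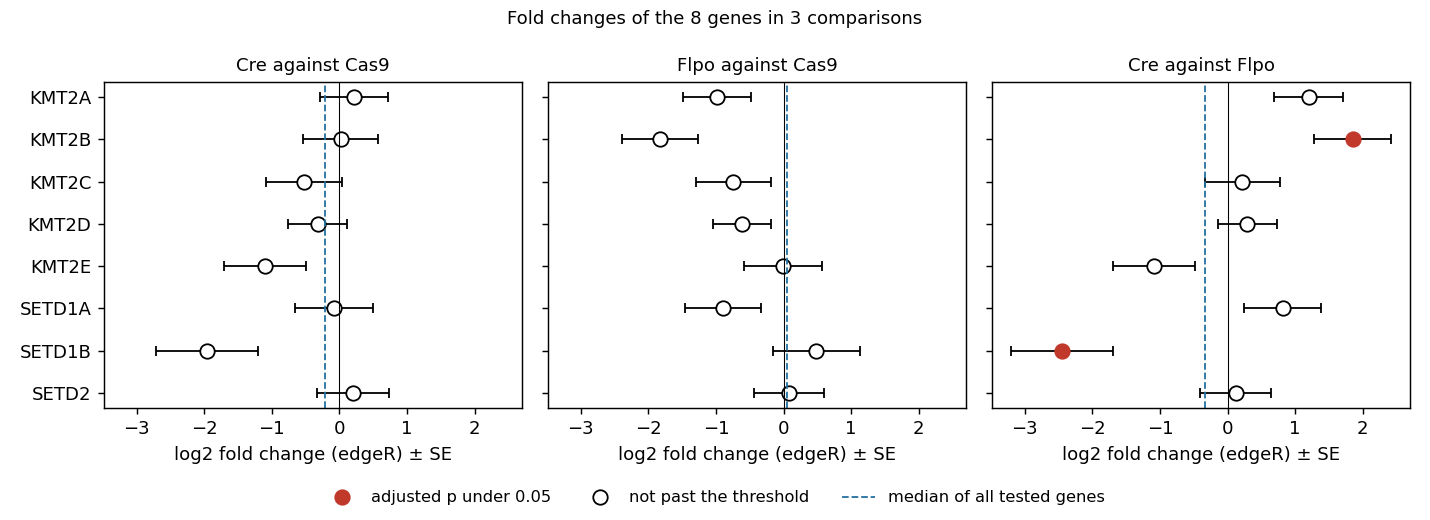
Log2 fold change ± SE (horizontal axes, edgeR) of the 8 genes in the 3 comparisons; filled points passed an adjusted p of 0.05, and the dashed line is the median of all 11905 tested genes. Filled points are KMT2B (1.85) and SETD1B (-2.45) in Cre against Flpo.

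Fold changes varied with transcript length across the table, and the 8 genes are long. Their longest coding transcripts run from 6451 bases (SETD1A) to 19419 (KMT2D), and even the shortest is longer than that of 83.3% of tested genes. In Cre against Flpo the median log2 fold change was -1.40 in the shortest 10% of genes and 0.39 in the longest 10%, and in Flpo against Cas9 it was 0.41 and -0.39. Spearman's rho between log2 fold change and length over 11867 genes, which are not independent replicates, was 0.24 in Cre against Flpo, -0.19 in Flpo against Cas9 and 0.21 in Cre against Cas9. Set against the median of their own length class of 10% of genes in Cre against Flpo, KMT2C, KMT2D and SETD2 differed by -0.17, -0.10 and -0.26, KMT2A by 0.81 and SETD1A by 0.74. KMT2B differed by 1.46, KMT2E by -1.17 and SETD1B by -2.84. With the length trend removed from the counts, KMT2B in Cre against Flpo was 1.21 (edgeR adjusted p = 0.135) and SETD1B -3.22 (adjusted p = 0.0237). KMT2B and SETD1B have transcripts of similar length (8469 and 8185 bases) and GC content (63.5% and 61.3%). The cause of their differences was not tested.

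**Figure D5:**
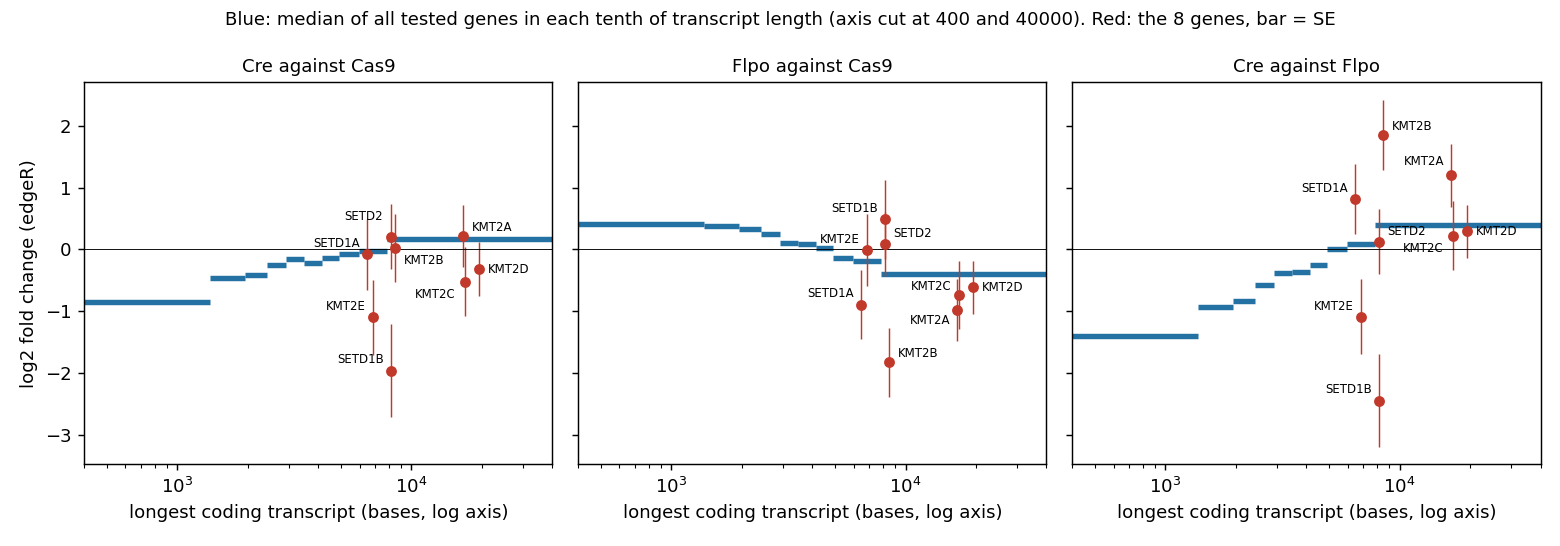
Log2 fold change (edgeR, vertical axis) against the longest coding transcript (bases, log axis) for the 3 comparisons; blue bars are medians of all tested genes in each length class of 10% of genes, and red points are the 8 genes with their SE. In Cre against Flpo the blue bars rise from -1.40 to 0.39, KMT2C, KMT2D and SETD2 lie near the last bar, KMT2B lies above it and SETD1B below it.

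Of the shared COMPASS subunits, 1 of 4 passed in Cre against Flpo, beside 20.5% of all tested genes, and none in the other comparisons. ASH2L, the subunit that stimulates the SET domain, stood at 79.7, 39.2 and 18.1 CPM in Cas9, 59.3, 129 and 147 in Cre, and 15.4, 30.8 and 16.3 in Flpo. Its Cre libraries lay above all Flpo libraries, and it rose by 2.42 in Cre against Flpo (log2, SE 0.62, edgeR adjusted p = 0.0234). WDR5, the scaffold subunit that contacts the enzyme, stood at 6.57, 43.1 and 44.1 CPM in Cas9, 24.1, 7.38 and 8.49 in Cre, and 70.3, 38.4 and 73.8 in Flpo, a log2 fold change of -2.07 in Cre against Flpo (SE 0.72, edgeR adjusted p = 0.0554). DPY30 gave -1.76 (adjusted p = 0.0840) and RBBP5 0.64 (adjusted p = 0.375) in the same fit.

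Around the enzymes, 1 of 12 COMPASS partners passed in Cre against Flpo, where 20.5% of all tested genes did (6.17% higher and 14.3% lower). It was MEN1, menin, the adaptor of KMT2A and KMT2B, which fell by 2.84 in Cre (log2, SE 0.86, edgeR adjusted p = 0.0367), from 75.1, 29.1 and 119 CPM in Flpo to 21.2, 0 and 4.24 in Cre. The Cre values rest on 44, 0 and 5 counts, and the Cas9 libraries (13.15, 33.5 and 53.9 CPM) overlapped both groups. Its sign in Cre against Flpo was opposite to that of KMT2B, an enzyme it binds, and a link between them was not tested. Among 5 H3K4 demethylases, KDM1A (LSD1) fell by 2.79 in Cre (edgeR adjusted p = 0.0410), and none of 11 readers of H3K4 methylation passed. None of 6 other H3K36 methyltransferases passed, and among 5 H3K36 demethylases KDM4B rose by 1.53 in Cre (edgeR adjusted p = 0.0302). Of 11 readers of H3K36 methylation and partners of SETD2, 2 fell, namely MSH6, the mismatch repair protein whose PWWP domain reads the mark (-1.96, edgeR adjusted p = 0.0273), and MORF4L1, a chromodomain reader (-2.65, adjusted p = 0.0212). No gene of these lists passed in Cre against Cas9 or in Flpo against Cas9. List medians in Cre against Flpo ran from -1.50 (H3K36 readers and SETD2 partners) to 0.98 (H3K36 demethylases), beside -0.34 for all genes.

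Markers of other cell types moved with the same comparison. COL1A1 and COL1A2, collagen genes of stromal cells, were higher in Cre than in Flpo (log2 fold change 3.19 and 3.47, edgeR adjusted p = 0.0243 and 0.0288). The 6 blood and stromal markers summed to 439 to 5509 CPM in Cre, 196 to 754 in Cas9 and 198 to 266 in Flpo, with the highest sum in Cre replicate 2, while HBB was at 0 in 8 of 9 libraries and PTPRC in 7 of 9. KRT8 and KRT18, keratins of HEK293 cells, were lower in Cre than in Flpo (-3.36 and -4.43, edgeR adjusted p = 0.0199 and 0.0167), 2 of the 7 HEK293 markers tested. Their part in the values of KMT2B and SETD1B was not tested. Without Cre replicate 2 and Flpo replicate 2 together, KMT2B was 2.15 (edgeR adjusted p = 0.0212) and SETD1B -2.52 (adjusted p = 0.0157) in Cre against Flpo. In that fit 5143 of about 12480 genes passed.

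Finally, the genes whose log2 CPM most resembled the mean standardized profile of the 8 over the 9 libraries, among 7692 tested genes with a mean of at least 50 counts, were NSD3 (Pearson r 0.98), an H3K36 methyltransferase, PRKACA (0.98), the catalytic subunit of protein kinase A, CAPNS1 (0.98), the small subunit of calpains, DALRD3 (0.97) and CEP350 (0.97), a centrosomal protein. These are the highest of many values over 9 points and carry no test. The mean profile itself stood nearest to KMT2C (r 0.90) and SETD1A (0.82) and farthest from KMT2E (0.34) and SETD1B (0.35), so it does not stand for all 8 genes. KMT2A and SETD1B ran opposite to each other over the libraries (r -0.63, rho -0.85). They also ran opposite in their r with log2 total count, -0.72 for KMT2A and 0.87 for SETD1B.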

How the data were processed

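The authors deposited estimated counts per gene symbol for 9 libraries, not normalized; the submitters' processing notes name Salmon 0.14.1 and the build hg38, without stating their role. The annotation and the use of strand are not given in the sources used here. The deposited estimated counts were rounded to whole numbers. Symbols were matched to GENCODE release 29 (GRCh38), which held 35345 of 35876.

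Groups were compared in R 4.3.3 with the quasi-likelihood test of edgeR 4.0.16, fitted over all 9 libraries, after TMM scaling and its default filter (minimum count 10, minimum total 15), which left 11905 genes. Adjusted p-values are Benjamini-Hochberg values over those genes, with a threshold of 0.05, and standard errors are the absolute log2 fold change over the square root of F. Within-library ratios used exact permutation of F over the 3 groups (two-sided, Python 3.11.15), a test of any difference among them. The code was tested on simulated data.

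The 8 genes and all gene lists were chosen with earlier results of these data known. The genes named are the 8, the 4 shared COMPASS subunits, up to 4 genes past the threshold per other list and comparison, and the 5 genes most like the mean profile. ATP5MG and AP001267.5 were added after their values were seen. Alternatives used DESeq2 1.42.0, limma 3.58.1, other filters and scalings, a length correction, thinning, and leaving out each library.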

Additional observations from a re-analysis of the deposited data

Results flagged for a closer look

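Between Cre and Flpo, each compared with the same Cas9 group, KMT2B differed by 1.85 on the log2 scale (edgeR adjusted p = 0.0391). The Flpo libraries were low and the Cre libraries near Cas9.

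SETD1B differed by -2.45 in the opposite direction (edgeR adjusted p = 0.0377), with 9, 0 and 5 counts in the 3 Cre libraries.

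The log2 ratio of SETD1A to SETD1B differed by 3.11 between the Cre and Flpo groups. The exact permutation test of any difference among the 3 groups gave an adjusted p of 0.0107 for this ratio.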

How the results depend on the processing

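Depth limits these values: Cre replicate 2 gave 0 to 6 counts for 6 of the 8 genes, and thinning to its total left KMT2B, SETD1A, SETD1B and SETD2 untestable. Genes past the threshold, in the order Cre against Cas9, Flpo against Cas9, Cre against Flpo and any difference, were 0, 27, 2440 and 1132. DESeq2 gave 4, 1065, 3976 and 2870. No filter gave 51, 1169 and, for any difference, 3128. Limma voom with quality weights gave 3943, 7267, 8040 and 9476. For the last 3 counts, the log2 total as covariate gave 0, 0 and 0, thinning 15, 1041 and 490, and leaving out both Cre 2 and Flpo 2 (chosen after seeing the data) 2968, 5143 and 3717. Flpo against Cas9 also gave 13 without TMM, 12 at a minimum count of 30, 0 with only its 2 groups and 106 with the length trend removed. Without TMM the median of all genes moved from -0.34 to 0.45 in Cre against Flpo, and from 735 of 2440 to 2045 of 2882 calls were higher in Cre. Leaving out each library gave 0 to 2684, 0 to 5558 and 10 to 4195 genes for these 3 counts, the highest each without Flpo replicate 2. Flpo against Cas9 gave 0 without Cas9 1, Cas9 2, Cre 2, Flpo 1 or Flpo 3, 12 without Cre 3 and 74 without Cas9 3, and Cre against Flpo gave 0 without Cre 2, Cre 3 or Flpo 1, 405 without Flpo 3 and 1386 without Cas9 2.

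Of the 8 genes, Cre against Cas9 had 0 calls, or 2 by limma voom (KMT2C and KMT2E, beside 3943 of all 11905 tested genes). Flpo against Cas9 had 0, or 1 by DESeq2 (beside 1065 of about 11810 genes) and 5 by limma voom (beside 7267 of 11905). It had 2 without Cre 2 and Flpo 2 (beside 2968 of about 12480), and 0 to 2 without each library (beside 0 to 2684). Cre against Flpo had 2 (beside 2440 of 11905), or 1 with no filter (beside 3613 of about 25390) and 0 with only the 2 groups (beside 2161). It had 0 with the log2 total (beside 0), 0 thinned (beside 1041) and 1 with the length trend removed (beside 2339). Limma voom called 4 (beside 8040 of 11905), and leaving out each library gave 0 to 3 (beside 0 to 5558). KMT2B there gave 2.64 (edgeR adjusted p = 0.0167) and SETD1B -1.66 (adjusted p = 0.106) without TMM, where KMT2A (1.95, adjusted p = 0.0284) and SETD1A (1.63, adjusted p = 0.0498) also passed. KMT2B lost its call with no filter (edgeR adjusted p = 0.0726), with only the 2 groups (0.0673), with the block (0.0728) and with the log2 total (2.30, 0.791), and SETD1B with only the 2 groups (0.0632).

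The replicate numbers did not pair the samples (same-number correlations of deviations -0.55 to 0.53). With the replicate number as a block, 6, 1568 and 426 genes passed (Flpo against Cas9, Cre against Flpo, any difference), and of the 8 genes 1, SETD1B (-2.65, edgeR adjusted p = 0.0482). Each library correlated best with its own number in 4 of 18 cases. The SETD1A to SETD1B ratio difference stayed 3.11 with the block, was 2.10 at a pseudocount of 5 and 2.84 to 3.30 without each library. With the block the exact permutation test over the 3 groups gave an adjusted p of 0.0833. Its unadjusted p was the smallest that the fewer splits within blocks can give, so the missing call cannot be read as a weaker difference. KMT2C to KMT2D gave -1.04 to 0.041 without each library.

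Values that changed sign had not passed by edgeR on all 9 libraries with TMM, though limma voom called SETD1B in Flpo against Cas9 (1.21, adjusted p = 0.00337) and KMT2E in Cre against Flpo (-1.74, adjusted p = 0.00356). In Cre against Cas9 these were KMT2A -0.29 (length), KMT2B -0.026 (no filter), -0.0080 (only 2 groups), -0.015 (replicate block), -0.21 (length), -0.26 (limma voom) and -0.40 to 0.21 (without each library). SETD1A gave 0.19 (no TMM), 0.48 (log2 total), 0.21 (without Cre 2 and Flpo 2) and -0.30 to 0.21 (without each library), and SETD2 -0.037 (length) and -0.21 to 0.52. In Flpo against Cas9 KMT2D gave 0.18 (length), KMT2E 0.073 (minimum 30), 0.37 (length), 0.21 (without Cre 2 and Flpo 2) and -0.39 to 0.27 (without each library). SETD1B gave -0.062 (no TMM) and -0.62 (log2 total), and SETD2 -0.44 (no TMM), -0.72 (log2 total), -0.23 (limma voom) and -0.10 to 0.14. In Cre against Flpo KMT2C gave -0.83 (length) and -0.65 to 0.54, KMT2D -0.13 (log2 total) and -1.03 (length), KMT2E 0.31 (log2 total), and SETD2 -0.53 (length) and -0.28 to 0.45. The cause was not tested.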
